A study of Mus musculus with 10 samples.

Results

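This account follows 53 mouse genes of the ER stress and amino acid response, out of 54336 genes in the annotation, in CD8 T cells recovered from tumours. The genes were chosen by symbol and split into a chaperone branch of 23 genes and an amino acid branch of 30 genes. TCRP1A CD8 T cells, which carry a transgenic receptor for a tumour antigen, were activated for 24 h and then given a retroviral vector. After a further 24 h they were moved into Rag1-/- B10D2 mice with P511 tumours (mastocytoma, which derives from mast cells), and CD8 cells were sorted back on day 7 and their RNA sequenced. C57BL/6 is the strain in the labels. Rag1-deficient hosts make no T or B cells of their own but keep myeloid and NK cells. The vectors carried CA-RIT NFAT1 (libraries 2, 4, 9 and 10), NFAT5 (libraries 1, 5 and 8) or eGFP alone as the control (libraries 3, 6 and 7), and all cells shared the same activation, transfer and host. CA-RIT NFAT1 is a constantly active NFAT1 that cannot pair with AP-1, and NFAT5 is the NFAT relative known from cells under osmotic stress. The labels do not name the promoter that drives each insert, and they do not say that libraries came from separate mice, so the p-values measure the spread between these libraries.

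Unfolded proteins in the endoplasmic reticulum (ER) are sensed by Ern1 (IRE1), Atf6 and PERK. Ern1 splices the message of Xbp1, and spliced Xbp1 and cleaved Atf6 switch on chaperones and degradation factors of the ER. PERK and GCN2, which senses missing amino acids, phosphorylate eIF2 alpha, which lowers translation in general and raises that of Atf4. Atf4 then switches on amino acid synthesis and transport genes, and activated T cells rely on both for growth.

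Some promoters of each branch, but not all, hold DNA elements known for these pathways. The genes were chosen by symbol and not by sequence, but as members of these pathways. The shares below are therefore a description and not independent of that choice. RefSeq promoter windows on GRCm38.p6, from 250 bases before to 50 bases after a gene's start, were found for 47 of the 53 genes, which is 20 of the chaperone branch and 27 of the amino acid branch. Each motif was searched on both strands. The ER stress element (CCAAT, any 9 bases, CCACG) was found in 8 of the 20 chaperone branch promoters (40.0%) and in 0 of the 27 amino acid branch promoters, against 37 of 27025 symbols in the whole table (0.137%). In the lines below capitals mark the element, on the gene's strand or, where it reads CGTGG first, on the opposite one.
Hspa5: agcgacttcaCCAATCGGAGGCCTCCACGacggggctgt
Hsp90b1: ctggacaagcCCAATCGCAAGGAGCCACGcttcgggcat
Calr: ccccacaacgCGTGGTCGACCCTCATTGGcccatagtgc
Canx: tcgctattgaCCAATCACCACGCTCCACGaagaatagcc
Dnajc3: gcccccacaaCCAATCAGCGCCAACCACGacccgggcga
Creld2: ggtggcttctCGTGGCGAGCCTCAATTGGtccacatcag
Pdia6: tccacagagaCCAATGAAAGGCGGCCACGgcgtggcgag
Syvn1: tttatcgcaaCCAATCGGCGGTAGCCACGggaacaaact
The Hspa5 stretch shown, which is the element with 10 bases on each side, lies at chr2:34772015-34772053 on the plus strand. Its element begins 65 bases before the start. Hsp90b1 held a second copy on the opposite strand, 107 bases before its start. The shorter form ERSE-II (ATTGG, any base, CCACG) was found in Dnajb11 and Herpud1, 2 of 20 (10.0%), in 0 of 27 amino acid branch promoters and in 12 of 27025 symbols (0.0444%).

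The C/EBP-ATF response element of amino acid response genes (CARE; TGATG, any base, AA) was found in 9 of the 27 amino acid branch promoters (33.3%) and in 1 of the 20 chaperone branch promoters (5.00%), Herpud1, against 1219 of 27025 symbols (4.51%). The 9 were Asns, Atf3, Chac1, Nupr1, Pycr1, Slc1a4, Slc7a11, Trib3 and Vldlr. Sites are shown for members whose values are given in every library and for the pair in Slc7a11, again with the element in capitals.
Asns: cccagccacaTGATGAAActtcccgcac
Chac1: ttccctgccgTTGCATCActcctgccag
Nupr1: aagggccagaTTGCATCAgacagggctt
Pycr1: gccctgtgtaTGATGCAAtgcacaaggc
Slc1a4: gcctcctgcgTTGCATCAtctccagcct
Slc7a11 at 66 bases: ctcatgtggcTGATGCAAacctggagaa
Slc7a11 at 47 bases: cctggagaatTTGCATCAtcatgcagcc
The Asns stretch shown, again with 10 bases on each side, lies at chr6:7693215-7693242 on the minus strand, the strand of the gene. Its element begins 23 bases before the start. The core of the Xbp1 element (TGACGTGG) was found in 0 of 20 chaperone branch promoters, in 1 of 27 amino acid branch promoters (Slc7a6, 3.70%) and in 193 of 27025 symbols (0.714%). Cores bound by the vectors' factors were about as frequent in the members as in the table. The NFAT core (GGAAAA) was in 5 of 20 (25%) and 5 of 27 (18.5%), against 26.1% of all symbols, and the NFAT5 core (TGGAAA), which can overlap it, in 4 of 20 (20.0%) and 5 of 27 (18.5%), against 23.9%. A match in these windows is a description of letters and not a measured binding site.

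Whole windows are given for Hspa5, the main ER chaperone, for Syvn1, the chaperone branch member with the lowest p on the higher side, and for Asns, a standard Atf4 target. Capitals mark the ER stress element in the first pair and CARE in Asns.
Hspa5 chr2:34771840-34772139 plus strand: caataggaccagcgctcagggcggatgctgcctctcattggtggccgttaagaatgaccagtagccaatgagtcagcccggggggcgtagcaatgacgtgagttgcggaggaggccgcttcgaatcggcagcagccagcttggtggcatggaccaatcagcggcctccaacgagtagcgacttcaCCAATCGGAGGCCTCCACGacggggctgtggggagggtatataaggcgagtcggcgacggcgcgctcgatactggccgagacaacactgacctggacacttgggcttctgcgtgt
Syvn1 chr19:6046326-6046625 plus strand: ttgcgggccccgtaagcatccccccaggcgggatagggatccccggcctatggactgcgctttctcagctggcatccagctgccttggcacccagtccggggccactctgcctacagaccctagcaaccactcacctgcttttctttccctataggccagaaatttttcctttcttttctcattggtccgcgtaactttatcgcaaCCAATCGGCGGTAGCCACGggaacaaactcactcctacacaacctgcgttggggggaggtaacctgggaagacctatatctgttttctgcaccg
Asns chr6:7693160-7693459 minus strand: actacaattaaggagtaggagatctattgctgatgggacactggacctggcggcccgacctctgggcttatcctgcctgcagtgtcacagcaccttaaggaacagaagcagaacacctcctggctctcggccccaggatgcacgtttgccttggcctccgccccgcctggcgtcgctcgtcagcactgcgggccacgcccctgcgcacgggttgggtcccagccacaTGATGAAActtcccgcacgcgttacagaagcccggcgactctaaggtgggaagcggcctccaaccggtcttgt

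Of the 10 libraries, 9 held 18.8 to 36.6 M estimated reads and eGFP control 7 held 0.0511 M, with 10 reads on 6 members, so that 3 reads there stood for 58.7 CPM (CPM express a gene's reads relative to all reads on genes of its library). CA-RIT NFAT1 10 held almost no T cell message, with Cd8a at 0.0308 CPM and a 10-gene CD8 T cell list summing to 221 CPM. It held much message of the mast cell, macrophage and dendritic cell lists, at 5275, 4601 and 4537 CPM. Both were kept out of the fit over 8 libraries that is reported here, and CA-RIT NFAT1 10 is described apart. In the 8 libraries the CD8 T cell list summed to 28676 to 34041 CPM with CA-RIT NFAT1, 27112 to 28672 CPM with NFAT5 and 33576 to 42235 CPM in eGFP controls, and the part of this difference in the members' values was not tested. Nfat5 had 10.7, 4.70 and 3.01 CPM with CA-RIT NFAT1, 87.0, 81.6 and 48.0 CPM with NFAT5 and 1.12 and 6.88 CPM in eGFP controls. Nfatc2, which encodes NFAT1, had 88.8, 63.5 and 30.0 CPM with CA-RIT NFAT1, 70.0, 42.3 and 36.6 CPM with NFAT5 and 4.00 and 47.3 CPM in eGFP controls, so its level did not single out the CA-RIT NFAT1 libraries. Values per library below run in the order 2, 4, 9 for CA-RIT NFAT1, 1, 5, 8 for NFAT5 and 3, 6 for eGFP.

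ER chaperone messages were abundant in these T cells. Per length, Hspa5 (BiP, the main ER chaperone) averaged 1200 TPM over the 8 libraries, and 99.2% of the 14473 genes tested had a lower mean TPM. Pdia3, a disulfide isomerase that works with the calnexin cycle, followed at 726 TPM, Calr (calreticulin) at 638 TPM, Hsp90b1 (GRP94) at 619 TPM and Manf, a secreted ER stress protein, at 505 TPM. The most abundant amino acid branch members were Slc3a2, the heavy chain of several amino acid transporters, at 290 TPM, and Phgdh, the first enzyme of serine synthesis, at 284 TPM. At the low end stood Ern1 at 2.31 TPM, Chac1 at 2.17 TPM, Nupr1 at 2.10 TPM and Slc7a11, the cystine transporter, at 0.0729 TPM. Vldlr had 0 reads in all 10 libraries and was the 1 member of 53 not tested.

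**Figure D1:**
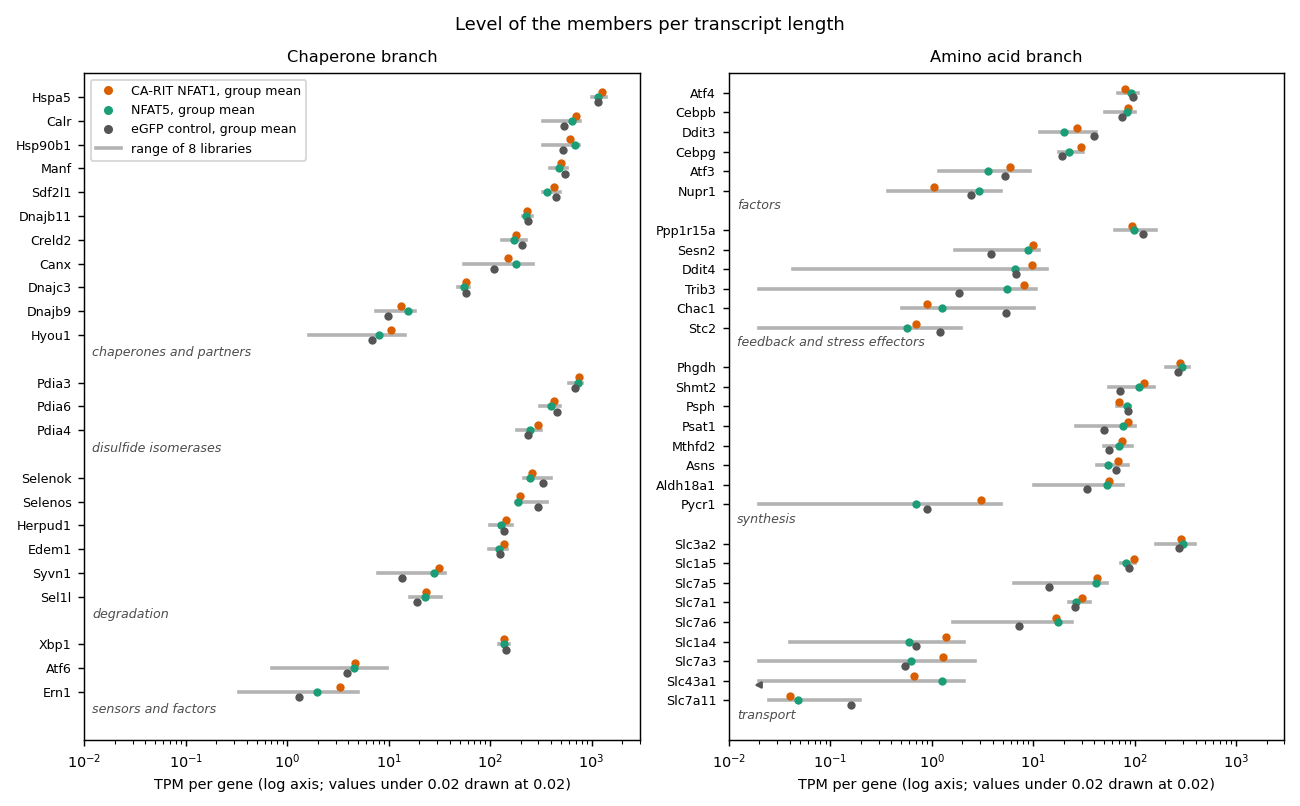
Level per length (TPM, log axis) of each member with reads, by branch and role. Points are the means of each vector group, with CA-RIT NFAT1 first, and grey lines the range over the 8 libraries; values under 0.02 are drawn at 0.02. Hspa5 leads at 1200 TPM and the amino acid branch spans the wider range, down to Slc7a11 at 0.0729 TPM.

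The total of each branch overlapped between the vectors on the CPM scale. The 23 chaperone branch genes summed to 10016, 12670 and 12598 CPM with CA-RIT NFAT1, 11557, 10906 and 12244 CPM with NFAT5 and 11444 and 12298 CPM in eGFP controls. The 30 amino acid branch genes summed to 2270, 2507 and 2734 CPM with CA-RIT NFAT1, 2478, 2312 and 2630 CPM with NFAT5 and 2489 and 2227 CPM in eGFP controls. On the TPM scale the amino acid sums were 1512 to 1686 with CA-RIT NFAT1, 1475 to 1636 with NFAT5 and 1376 to 1475 in eGFP controls, so the CA-RIT NFAT1 libraries stood above the controls on that scale. In bulk samples such as these, fewer cells of a type and less RNA per cell cannot be told apart.

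No member passed an adjusted p of 0.05 in any of the 3 comparisons by edgeR's quasi-likelihood test, nor did any of the 14473 genes (0% called in each direction). The lowest adjusted p of a member was 1.00 for CA-RIT NFAT1 against NFAT5, 0.680 for CA-RIT NFAT1 against eGFP and 0.654 for NFAT5 against eGFP. At an unadjusted p under 0.05 stood 0 members in the first comparison (all genes 0.788% higher, 0.339% lower), 5 higher and 2 lower in the second (all genes 3.28% and 3.16%) and 4 higher and 2 lower in the third (3.25% and 4.01%). DESeq2 called 1, 60 and 102 genes in these comparisons (0% higher and 0.00691% lower, 0.304% and 0.111%, then 0.504% and 0.2%), of which 0, 1 and 1 were members, each time Slc43a1 on the higher side. The last 2 comparisons share the eGFP libraries. The members with low p are therefore given below as values and not as changes.

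**Figure D2:**
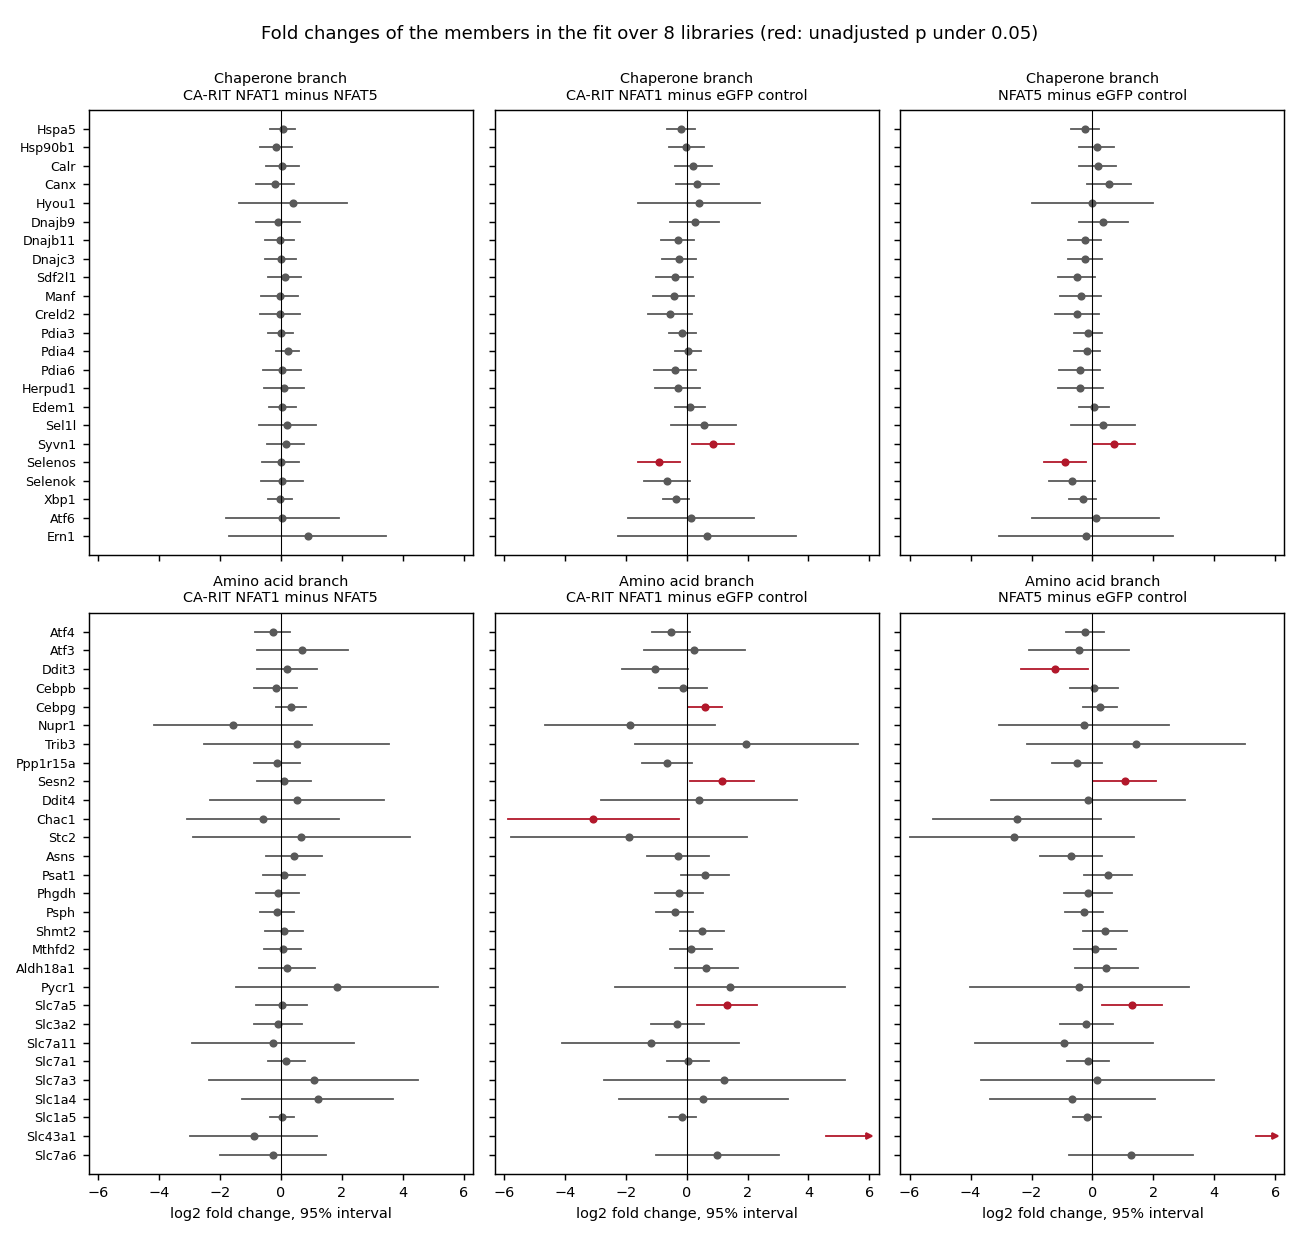
Log2 fold change with its 95% interval for each tested member in the 3 comparisons, by branch and role, from edgeR over 8 libraries. Chaperone branch estimates stay between -0.91 and 0.89, while low-count amino acid members such as Chac1 (-3.06 for CA-RIT NFAT1 against eGFP) spread far wider. Slc43a1 lies beyond the axis against eGFP (arrows), red marks an unadjusted p under 0.05, and no member passed the adjusted test.

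Of the 11 chaperones and partners 0 had an unadjusted p under 0.05 in any comparison, where 0.788% and 0.339% of all genes had one on the higher and lower side for CA-RIT NFAT1 against NFAT5, 3.28% and 3.16% for CA-RIT NFAT1 against eGFP and 3.25% and 4.01% for NFAT5 against eGFP. With so few genes a count of 0 does not show that they were alike. Hspa5 had 2015, 2521 and 2474 CPM with CA-RIT NFAT1, 2196, 2071 and 2369 CPM with NFAT5 and 2430 and 2406 CPM in eGFP controls. The highest of the 8 libraries was 1.25 times the lowest, and only NFAT5 and eGFP libraries were apart, NFAT5 being lower. In log2 fold change it stood at 0.07 (95% interval -0.35 to 0.48) for CA-RIT NFAT1 against NFAT5, -0.17 (-0.63 to 0.29) for CA-RIT NFAT1 against eGFP and -0.24 (-0.70 to 0.22) for NFAT5 against eGFP, the last 2 at -0.08 and -0.15 without eGFP control 3. Hsp90b1, which folds a narrower set of secreted and membrane proteins, had 1171, 1700 and 1629 CPM with CA-RIT NFAT1, 1654, 1588 and 1712 CPM with NFAT5 and 1088 and 1719 CPM in eGFP controls. Here CA-RIT NFAT1 2 and eGFP control 3 were low and the other 6 libraries close together. Canx (calnexin), which holds glycoproteins until they are folded, had 421, 474 and 486 CPM with CA-RIT NFAT1, 695, 454 and 414 CPM with NFAT5 and 225 and 445 CPM in eGFP controls. NFAT5 1 was the high library and eGFP control 3 the low one. Sdf2l1, a partner of Hspa5 and its cochaperones, had 276, 380 and 387 CPM with CA-RIT NFAT1, 290, 300 and 359 CPM with NFAT5 and 483 and 348 CPM in eGFP controls. The groups overlapped, and the log2 fold change for NFAT5 against eGFP was -0.51 ± 0.27 (SE), and -0.16 without eGFP control 3. Over all 11 chaperones and partners, median log2 fold changes were -0.02 for CA-RIT NFAT1 against NFAT5, -0.17 for CA-RIT NFAT1 against eGFP and -0.24 for NFAT5 against eGFP, beside 0.00, 0.10 and 0.08 over all genes. The remaining 7 chaperones and partners had no p under 0.05. Hyou1, a large chaperone that exchanges the nucleotide of Hspa5, ran from 6.24 CPM in eGFP control 3 to 49.4 CPM in NFAT5 1, a span of 7.91 times, where Calr spanned 2.02 times and Canx 3.09 times.

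The 3 disulfide isomerases, which form and reshuffle disulfide bonds, gave 0 members with such a p, beside the shares of all genes given above. So small a set cannot show by this count that the groups were alike. Pdia4 had 549.5, 624 and 577 CPM with CA-RIT NFAT1, 548.5, 476 and 465 CPM with NFAT5 and 468 and 575 CPM in eGFP controls. Every CA-RIT NFAT1 library stood above every NFAT5 library, if by 1 CPM at the closest, and both overlapped the controls. It was the 1 chaperone branch member of 23 with such a gap between CA-RIT NFAT1 and NFAT5 (all genes 4.06% higher, 2.77% lower), at a log2 fold change of 0.22 ± 0.17. Pdia3 averaged 1691 ± 206 CPM with CA-RIT NFAT1, 1678 ± 128 CPM with NFAT5 and 1708 ± 14.8 CPM in eGFP controls (SD, n = 3, 3 and 2). Pdia6 averaged 844 ± 214 CPM with CA-RIT NFAT1, 814 ± 138 CPM with NFAT5 and 1007 ± 160 CPM in eGFP controls.

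Against eGFP, the chaperone branch members with an unadjusted p under 0.05 were 2 degradation factors, Syvn1 on the higher side and Selenos on the lower. Syvn1 (HRD1), the ubiquitin ligase that marks misfolded ER proteins, had 80.9, 83.8 and 58.9 CPM with CA-RIT NFAT1, 76.9, 61.6 and 59.8 CPM with NFAT5 and 26.6 and 49.4 CPM in eGFP controls. All 6 libraries with an NFAT vector stood above both controls. Its log2 fold change was 0.87 ± 0.31 for CA-RIT NFAT1 and 0.71 ± 0.31 for NFAT5, each against eGFP (SE; edgeR adjusted p 0.680 and 0.654), and 0.55 and 0.39 without eGFP control 3. Sel1l, the partner that holds Syvn1 in its complex, ran from 84.2 to 105 CPM with CA-RIT NFAT1, from 56.6 to 125 CPM with NFAT5 and had 30.9 and 92.3 CPM in eGFP controls. Selenos, a selenoprotein that links this complex to the p97 ATPase, had 177, 177 and 189 CPM with CA-RIT NFAT1, 153, 191 and 195 CPM with NFAT5 and 402 and 216 CPM in eGFP controls. The controls stood above the other 6 libraries, and eGFP control 3 far above them. Its log2 fold change was -0.91 ± 0.30 for each NFAT vector against eGFP, and -0.29 for each without eGFP control 3. Selenok, a small selenoprotein of the ER membrane, had 129, 116 and 170 CPM with CA-RIT NFAT1, 106, 145 and 151 CPM with NFAT5 and 251 and 140 CPM in eGFP controls. Only eGFP control 3 stood apart, and the fold changes of -0.64 and -0.66 for CA-RIT NFAT1 and NFAT5 against eGFP came to -0.05 and -0.08 without it. Herpud1 and Edem1, which act in the recruitment and the recognition of misfolded proteins, had no p under 0.05.

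Among sensors and factors, Xbp1 was the steadiest member of the chaperone branch within groups, with an SD of 0.10 on the log2 scale. It had 217, 264 and 250 CPM with CA-RIT NFAT1, 259, 248 and 235 CPM with NFAT5 and 290 and 280 CPM in eGFP controls. Both controls stood above all 6 other libraries, by a small margin: log2 fold changes were -0.35 ± 0.19 for CA-RIT NFAT1 and -0.32 ± 0.19 for NFAT5 against eGFP, and -0.24 and -0.20 without eGFP control 3. The spliced form of Xbp1 could not be read, since none of its 4 annotated transcripts differ by the 26-base intron that Ern1 removes. Ern1 itself had 18.5, 6.70 and 9.97 CPM with CA-RIT NFAT1, 13.9, 2.40 and 2.58 CPM with NFAT5 and 0.411 and 13.5 CPM in eGFP controls, a spread within each group that exceeded any gap between them. Atf6 ranged from 25.9 to 58.2 CPM with CA-RIT NFAT1, from 14.0 to 72.1 CPM with NFAT5 and had 6.87 and 55.8 CPM in eGFP controls.

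Over the 23 chaperone branch members the libraries of the groups did not overlap for 2 higher members (Dnajb9, Syvn1) and 2 lower ones (Selenos, Xbp1) of CA-RIT NFAT1 against eGFP, where 14.2% and 6.70% of all genes stood higher and lower. For NFAT5 against eGFP it was 1 higher (Syvn1) and 3 lower (Hspa5, Selenos, Xbp1), where all genes gave 14.2% and 8.15%. Branch medians were 0.04 for CA-RIT NFAT1 against NFAT5, -0.14 for CA-RIT NFAT1 against eGFP and -0.21 for NFAT5 against eGFP.

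In the amino acid branch the main factor, Atf4, showed no difference in message that passed the test. Atf4 had 86.8, 95.5 and 129 CPM with CA-RIT NFAT1, 112, 104 and 155 CPM with NFAT5 and 144 and 126 CPM in eGFP controls, and the groups overlapped. The estimate was a log2 fold change of -0.27 (95% interval -0.84 to 0.30) for CA-RIT NFAT1 against NFAT5, -0.51 (-1.14 to 0.12) for CA-RIT NFAT1 against eGFP and -0.24 (-0.87 to 0.39) for NFAT5 against eGFP, the last 2 at -0.32 and -0.05 without eGFP control 3. Atf4 is controlled largely in translation, which these data do not measure. Ddit3 (CHOP), a factor tied to death under lasting ER stress, had 23.7, 8.02 and 14.7 CPM with CA-RIT NFAT1, 13.7, 11.9 and 13.8 CPM with NFAT5 and 33.6 and 23.5 CPM in eGFP controls. NFAT5 libraries stood below the controls, and CA-RIT NFAT1 2 reached the lower control. Estimates were a log2 fold change of -1.03 ± 0.48 for CA-RIT NFAT1 and -1.24 ± 0.48 for NFAT5 against eGFP (adjusted p 0.680 and 0.654 by edgeR), and -0.66 and -0.86 without eGFP control 3. Cebpg, a C/EBP factor that dimerises with Atf4, had 46.4, 49.4 and 52.2 CPM with CA-RIT NFAT1, 36.3, 39.3 and 39.6 CPM with NFAT5 and 28.7 and 31.4 CPM in eGFP controls. The 3 groups did not overlap, in that order, and this was the least variable member of all, with a within-group SD of 0.08 on the log2 scale. Estimates in log2 fold change were 0.35 ± 0.22 for CA-RIT NFAT1 against NFAT5, 0.60 ± 0.24 for CA-RIT NFAT1 against eGFP and 0.25 ± 0.24 for NFAT5 against eGFP, and the last 2 were 0.61 and 0.27 without eGFP control 3. Nupr1, a small stress-induced chromatin protein, had 1.41, 0.346 and 0.213 CPM with CA-RIT NFAT1, 0.645, 1.39 and 3.67 CPM with NFAT5 and 3.37 and 0.850 CPM in eGFP controls, and the groups overlapped at these low counts. Atf3 and Cebpb, which like Atf4 are bZIP factors, had no p under 0.05.

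**Figure D3:**
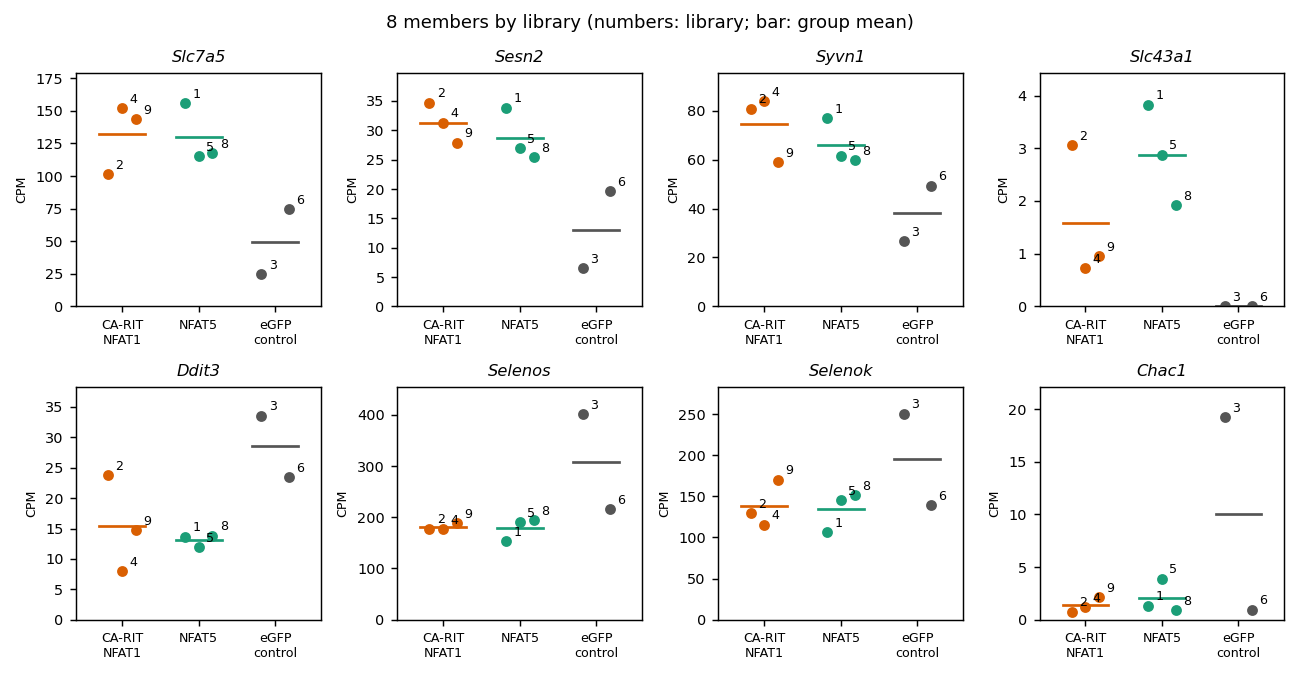
CPM in each of the 8 libraries, numbered, for 8 members, with CA-RIT NFAT1 left, NFAT5 in the middle and eGFP right, and each group's mean as a bar. Slc7a5, Sesn2 and Syvn1 lie higher in all 6 libraries with an NFAT vector than in both controls, and Selenos lies lower. Of all genes, 14.2% stood higher without overlap in each comparison with eGFP. On the lower side it was 6.70% with CA-RIT NFAT1 and 8.15% with NFAT5. eGFP control 3 was the lowest of the 8 libraries for 37.5% of all genes and the highest for 22.3%.

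Among feedback and stress effectors, Sesn2 had the lowest p on the higher side and Chac1 on the lower. Sesn2 (sestrin 2), a leucine sensor that restrains mTORC1 under amino acid lack, had 34.7, 31.3 and 27.9 CPM with CA-RIT NFAT1, 33.9, 26.9 and 25.4 CPM with NFAT5 and 6.54 and 19.6 CPM in eGFP controls. All 6 libraries with an NFAT vector were above both controls. Its log2 fold change was 1.17 ± 0.46 for CA-RIT NFAT1 and 1.06 ± 0.45 for NFAT5 against eGFP (adjusted p 0.680 and 0.654 by edgeR), and 0.63 and 0.52 without eGFP control 3. Chac1, which degrades glutathione and is a sensitive marker of Atf4 activity, had 0.774, 1.18 and 2.13 CPM with CA-RIT NFAT1, 1.33, 3.89 and 0.874 CPM with NFAT5 and 19.2 and 0.931 CPM in eGFP controls. eGFP control 3 was the 1 high library, and the log2 fold change for CA-RIT NFAT1 against eGFP was -3.06 ± 1.22, and 0.51 without that library. Trib3, an inhibitor of Atf4 and Akt signalling, averaged 13.1 ± 6.83 CPM with CA-RIT NFAT1, 9.02 ± 2.76 CPM with NFAT5 and 3.24 ± 4.58 CPM in eGFP controls. Ppp1r15a (GADD34), which removes the phosphate from eIF2 alpha, averaged 202 ± 84.6 CPM with CA-RIT NFAT1, 216 ± 44.2 CPM with NFAT5 and 289 ± 120 CPM in eGFP controls. Stc2, a secreted glycoprotein, stayed at or under 2.77 CPM. Ddit4 (REDD1), an inhibitor of mTORC1, spread from 0.0821 CPM in eGFP control 3 to 21.8 CPM in eGFP control 6, the widest range of any member with reads in all libraries.

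Of the 8 amino acid synthesis genes 0 had an unadjusted p under 0.05 in any comparison. All genes gave 0.788% higher and 0.339% lower for CA-RIT NFAT1 against NFAT5. They gave 3.28% and 3.16% for CA-RIT NFAT1 against eGFP, and 3.25% and 4.01% for NFAT5 against eGFP. At these shares a count of 0 in so few genes does not show that the groups were alike. Asns (asparagine synthetase) had 79.3, 76.5 and 101 CPM with CA-RIT NFAT1, 79.8, 48.7 and 61.6 CPM with NFAT5 and 139 and 47.5 CPM in eGFP controls. The 2 controls were the extremes of all 8 libraries. The estimates in log2 fold change were 0.42 ± 0.40 for CA-RIT NFAT1 against NFAT5, -0.27 ± 0.44 for CA-RIT NFAT1 against eGFP and -0.70 ± 0.44 for NFAT5 against eGFP. Without eGFP control 3 the last 2 came to 0.81 and 0.39, the opposite sign. Pycr1, the last enzyme of mitochondrial proline synthesis, had 7.27, 2.31 and 4.01 CPM with CA-RIT NFAT1, 1.61, 0.746 and 1.35 CPM with NFAT5 and 0 and 3.24 CPM in eGFP controls. CA-RIT NFAT1 libraries stood above NFAT5 libraries, at a log2 fold change of 1.84 ± 1.45, and with Cebpg this made 2 of 29 members higher without overlap in that comparison (all genes 4.06%). Psat1 and Shmt2, of the serine and glycine pathway, had every NFAT5 library above both controls. Psat1 averaged 166 ± 48.4 CPM with CA-RIT NFAT1, 155 ± 21.8 CPM with NFAT5 and 102 ± 42.3 CPM in eGFP controls. Shmt2 averaged 221 ± 71.3 CPM with CA-RIT NFAT1, 204 ± 31.5 CPM with NFAT5 and 144 ± 21.8 CPM in eGFP controls. Phgdh, Psph, Mthfd2 and Aldh18a1, of serine, folate and proline synthesis, overlapped in every comparison.

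Transporters came last, and among them Slc43a1 had the lowest p of all members in each comparison with eGFP. Slc7a5 (LAT1), the main importer of large neutral amino acids in activated T cells, had 101, 152 and 144 CPM with CA-RIT NFAT1, 156, 115 and 118 CPM with NFAT5 and 24.8 and 74.7 CPM in eGFP controls. Every library with an NFAT vector lay above both controls. The log2 fold change was 1.32 ± 0.43 for CA-RIT NFAT1 and 1.30 ± 0.43 for NFAT5 against eGFP (adjusted p 0.680 and 0.654 by edgeR), 0.79 and 0.77 without eGFP control 3, and 0.02 ± 0.37 for CA-RIT NFAT1 against NFAT5. Its obligate partner Slc3a2 did not share that pattern, with 319 ± 11.2 CPM with CA-RIT NFAT1, 338 ± 41.2 CPM with NFAT5 and 353 ± 226 CPM in eGFP controls (SD, n = 3, 3 and 2). The 2 controls, eGFP control 3 and eGFP control 6, had 513 and 194 CPM of Slc3a2, the highest and the lowest of the 8 libraries. Every library with an NFAT vector thus lay below eGFP control 3 and above eGFP control 6 for Slc3a2.

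Slc43a1 (LAT3), a second importer of neutral amino acids, was low throughout, with 3.06, 0.726 and 0.958 CPM with CA-RIT NFAT1, 3.83, 2.88 and 1.92 CPM with NFAT5 and 0 reads in both eGFP controls. All 6 libraries with an NFAT vector held reads, 139 reads over the CA-RIT NFAT1 group and 193 over the NFAT5 group. Against a floor of 3 reads over the control group it was at least 32.7-fold higher with CA-RIT NFAT1 and at least 59.3-fold higher with NFAT5, counting error only. CA-RIT NFAT1 2 held 91 of the 139 reads, and without it the bound for CA-RIT NFAT1 was 17.1-fold. In CA-RIT NFAT1 10, outside the fit, Slc43a1 had 16.7 CPM, and the part of other cells in its values was not tested. DESeq2 called it in both comparisons, at an adjusted p of 0.00948 and 0.00192, and edgeR did not, at 0.680 and 0.654, and over all settings tried the adjusted p ran from those DESeq2 values up to 1.00. Slc1a4, an exchanger of small neutral amino acids, had 8.25, 4.25 and 3.94 CPM with CA-RIT NFAT1, 5.08, 1.81 and 0.175 CPM with NFAT5 and 5.34 and 1.29 CPM in eGFP controls, and the groups overlapped. Slc1a5 (ASCT2), the glutamine carrier, was the steadiest transporter, at 176 ± 4.72 CPM with CA-RIT NFAT1, 170.5 ± 24.9 CPM with NFAT5 and 178 ± 4.21 CPM in eGFP controls. Slc7a6, which exchanges cationic for neutral amino acids, had 1.26 CPM in eGFP control 3 and 16.4 to 30.0 CPM in the other 7 libraries. Slc7a1 and Slc7a3, carriers of cationic amino acids, overlapped between all groups.

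Over the 29 tested amino acid branch members the libraries of CA-RIT NFAT1 and eGFP did not overlap for 4 higher ones (Cebpg, Sesn2, Slc7a5, Slc43a1) and 2 lower ones (Stc2, Slc7a11), where all genes gave 14.2% and 6.70%. Those of NFAT5 and eGFP did not overlap for 7 higher ones (these 4, Psat1, Shmt2 and Slc7a6) and 3 lower ones (Ddit3, Stc2, Slc7a11), where all genes gave 14.2% and 8.15%. For Slc7a11 the closest libraries were NFAT5 8 at 0.525 CPM (12 reads) and eGFP control 6 at 0.526 CPM (13 reads). Branch medians were 0.10 for CA-RIT NFAT1 against NFAT5, 0.13 for CA-RIT NFAT1 against eGFP and -0.15 for NFAT5 against eGFP. Within groups the amino acid branch varied more than the chaperone branch, with a median SD of 0.49 against 0.31 on the log2 scale (all genes 0.45). Among members with at least 100 CPM the medians were 0.40 over 10 amino acid and 0.28 over 17 chaperone members, and 0.32 over 2084 genes of that level.

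**Figure D4:**
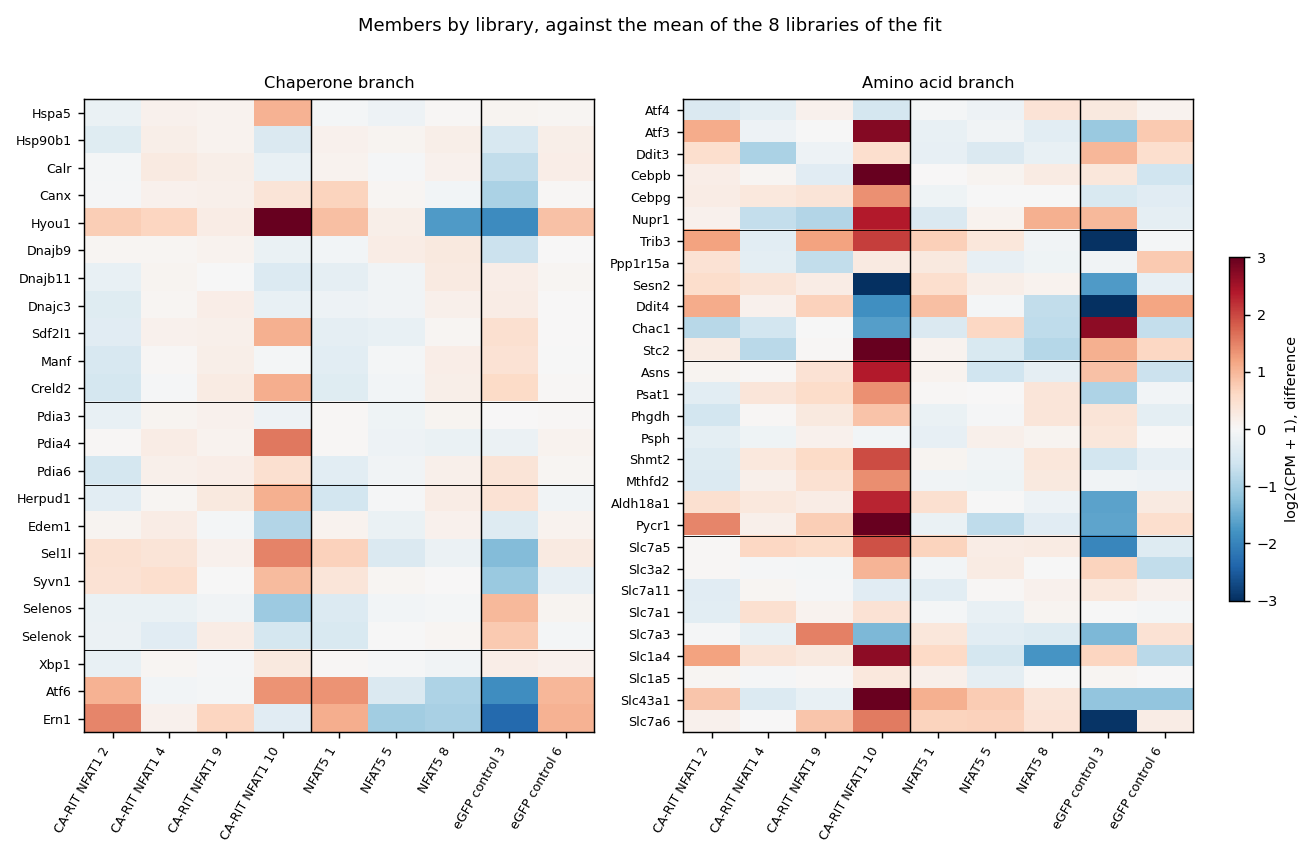
Difference in log2(CPM + 1) of each tested member from its mean over the 8 libraries of the fit (colour, limits -3 and 3), members in rows by role, with CA-RIT NFAT1 columns left, NFAT5 in the middle and eGFP right; CA-RIT NFAT1 10 is shown beside the 8. Among the 8, eGFP control 3 is the lowest for 23 of 52 members, tied with eGFP control 6 in Slc43a1, and the highest for 18.

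eGFP control 3 stood apart from the other libraries for many members. It was the lowest of the 8 libraries for 10 of 23 chaperone branch and 13 of 29 amino acid branch members, and the highest for 9 and 9, against 37.5% and 22.3% of all genes. Where it was lowest, the members' median effective transcript length was 2106 bases, and where it was highest it was 1171 bases (all genes 2159 and 1072 bases). Of the 8 members under 1000 bases 0 were lower in eGFP control 3 than in eGFP control 6, with a median difference of 0.67 on the log2(CPM + 1) scale (all genes 0.20). Of the 19 members over 2000 bases 14 were lower, with a median of -0.87 (all genes -0.75). Syvn1, Sesn2 and Slc7a5 have effective lengths of 2262, 2922 and 2902 bases, and Selenos, Selenok and Ddit3 of 853, 483 and 577 bases. Spearman's rho between length and the difference was -0.789 in the chaperone branch and -0.286 in the amino acid branch (all genes -0.37). Across the 52 members together it was -0.493. Between other libraries of 1 group it ran from -0.005 to 0.599, where the sign depends on which library is subtracted. In size, NFAT5 1 minus NFAT5 5 (0.599) and NFAT5 1 minus NFAT5 8 (0.557) exceeded the value of the controls (all genes 0.381 and 0.419). These are descriptions across genes that share libraries. The dendritic cell list, 11 genes of which 2 of 8 tested were on the higher side in each comparison with eGFP, summed to 188 to 323 CPM with CA-RIT NFAT1, 214 to 311 CPM with NFAT5 and 246 to 1251 CPM in eGFP controls, with eGFP control 3 the highest. Among its defining genes eGFP control 3 was the highest of the 8 for Xcr1 (8.63 CPM, at most 2.70 CPM in the other 7), Flt3 (3.53 and at most 0.567 CPM), Batf3 (5.72 and at most 5.00 CPM), Cd74 (565 and at most 90.6 CPM), H2-Aa (190 and at most 13.5 CPM) and H2-Ab1 (454 and at most 90.3 CPM), and the 1 library with reads of Siglech. Clec9a was at 0 in all 8 libraries, Cd209a was at 0 in eGFP control 3 and 6 others, Zbtb46 was at 0 in both controls, and Itgax was lowest in eGFP control 3. The mast cell list was highest in eGFP control 3, at 298 CPM (at most 273 CPM in the other 7). It was lowest in eGFP control 6. Of its genes Cpa3, Trap1a, Mcpt8 and Hpgds were highest in eGFP control 3, and Kit, Gata2 and Hdc lowest. The macrophage list, at 738 CPM there, was within the range of the other 7. In that list Spi1, Chil3, C1qa, C1qb and C1qc were highest in eGFP control 3, and Itgam and Csf1r lowest. Lyz2, Adgre1, Fcgr1 and Csf3r were at 0 there. The parts of length and of these cells in the members' values were not tested. With eGFP control 3 as the lone control, assumed to vary like the other groups, edgeR called 12 members higher and 4 lower for CA-RIT NFAT1 and 10 higher and 5 lower for NFAT5 against eGFP, where 15.9%, 5.37%, 15.4% and 5.14% of 16011 genes were called. With eGFP control 6 as the lone control it called 0 members and 0 genes.

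**Figure D5:**
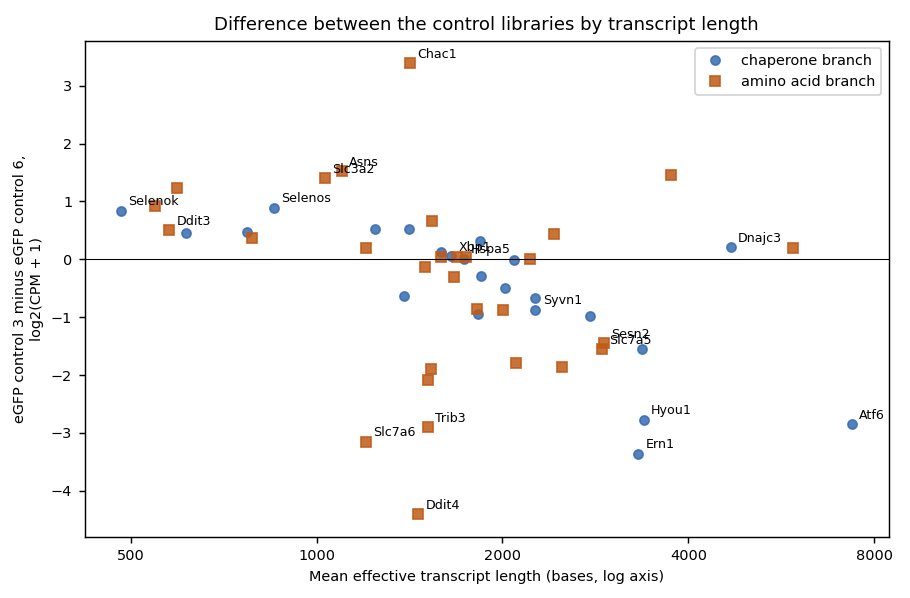
Difference of eGFP control 3 minus eGFP control 6 in log2(CPM + 1) against mean effective transcript length (bases, log axis) for the 52 tested members, by branch. All 8 members under 1000 bases lie above 0, and 14 of 19 members over 2000 bases lie below it.

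CA-RIT NFAT1 10 held higher sums of both branches than the 8 libraries of the fit. It is the library with message of the mast cell, macrophage and dendritic cell lists in place of T cell message. It summed to 16088 CPM over the chaperone branch and 5792 CPM over the amino acid branch, above all 8 other libraries in both. It stood above all 8 for 10 chaperone branch and 19 amino acid branch members and below all 8 for 4 and 4, against 30.4% and 25.7% of the genes tested. Its median chaperone branch member stood at 8.368 on the log2(CPM + 1) scale, under the 8.425 of eGFP control 3. Below all 8 in CA-RIT NFAT1 10 were Dnajb11, Edem1, Selenos and Selenok, and in the amino acid branch Atf4, Sesn2, Chac1 and Slc7a11. Asns had 390 CPM there and at most 139 CPM in the 8, Cebpb 408 CPM against at most 63.0 CPM, Hyou1 535 CPM against at most 49.4 CPM, and Hspa5 4755 CPM against at most 2521 CPM. Slc7a5 had 370 CPM there, and Sesn2 had 0 reads. Of its 4601 CPM of the macrophage list Chil3 gave 2997 CPM, and Ly6c2, at 7.51 CPM, was lower than in all 8. Its dendritic cell list summed to 4537 CPM, all from Cd74, H2-Ab1 and H2-Aa. In the mast cell list Tpsb2, Tpsab1, Mcpt4, Hdc, Fcer1a and Ms4a2 were at 0 there. As a single library of mixed cells, CA-RIT NFAT1 10 carries no test.

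Other genes of these pathways were read from 8 lists, and 0 of them were called by edgeR. Their counts at an unadjusted p under 0.05, given as higher and lower, are to be read against all genes, of which 0.788% and 0.339% had one for CA-RIT NFAT1 against NFAT5, 3.28% and 3.16% for CA-RIT NFAT1 against eGFP and 3.25% and 4.01% for NFAT5 against eGFP. Among 38 tested genes of ER folding, oxidation and stress sensing, 0 higher and 3 lower had an unadjusted p under 0.05 in each comparison with eGFP. They included Bax, a death effector, at 142 ± 6.01 CPM with CA-RIT NFAT1, 142 ± 7.47 CPM with NFAT5 and 243 ± 120 CPM in eGFP controls. Dnajc1, an Hspa5 cochaperone, was the 1 gene of that list with a low p between the NFAT vectors, at 99.4 ± 5.54 CPM with CA-RIT NFAT1 and 68.1 ± 1.86 CPM with NFAT5. Of 30 degradation genes 2 higher and 2 lower had such a p for CA-RIT NFAT1 and 1 and 3 for NFAT5 against eGFP. Derl3, a derlin of the ER membrane, had 16.9 ± 1.34 CPM with CA-RIT NFAT1, 15.4 ± 2.73 CPM with NFAT5 and 34.6 ± 9.93 CPM in eGFP controls, and Rnf103, a ubiquitin ligase, had 25.3 ± 1.55, 17.8 ± 1.86 and 9.16 ± 4.16 CPM in the same order. ER entry and glycosylation genes gave 0 and 1 of 46 for CA-RIT NFAT1 and 1 and 2 for NFAT5, with Srp14, of the signal recognition particle, at -0.96 on the log2 scale in both.

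On the amino acid side, 0 of 23 tRNA synthetase genes had a low p for CA-RIT NFAT1 against eGFP and 1 lower one for NFAT5, Eef1e1 at -1.18 ± 0.41 on the log2 scale, and -0.35 without eGFP control 3 (all genes 4.01% lower). Among 37 eIF2 alpha and Atf4 partner genes, 0 and 1 had one: Eif2ak4, which encodes GCN2, had 10.4 ± 4.30 CPM with CA-RIT NFAT1, 11.8 ± 2.34 CPM with NFAT5 and 4.11 ± 0.428 CPM in eGFP controls. Of 36 amino acid metabolism genes 3 and 2 were on the higher side at that p. Ass1, which makes argininosuccinate on the way to arginine, had 45.3 ± 18.3 CPM with CA-RIT NFAT1, 69.6 ± 24.8 CPM with NFAT5 and 16.4 ± 8.12 CPM in eGFP controls. Gpt2, the mitochondrial alanine transaminase, had 0 reads in both controls, 5.07 ± 3.38 CPM with CA-RIT NFAT1 and 3.39 ± 1.17 CPM with NFAT5. In CA-RIT NFAT1 10, outside the fit, it had 76.7 CPM, and the part of other cells in its values was not tested. Against a floor of 3 reads over the group it was at least 105-fold higher with CA-RIT NFAT1 and 69.4-fold with NFAT5 (edgeR adjusted p 0.628 and 0.654). Without CA-RIT NFAT1 2 the bound for CA-RIT NFAT1 was 64.7-fold. Slc6a13, a transporter of GABA and taurine, was likewise at 0 in both controls and at least 27.7-fold and 26.7-fold higher in the same order, and 17.6-fold with NFAT5 without its library 5. The 27 transporters of that list gave 1 and 0 for CA-RIT NFAT1 and 2 and 1 for NFAT5 against eGFP. Slc6a9, a glycine transporter, had 0 reads in all NFAT5 libraries, 0 to 3.77 CPM with CA-RIT NFAT1 and 0.728 and 2.05 CPM in eGFP controls. Immediate early and heat shock genes, which can respond to tissue digestion, gave 0 higher and 1 lower of 25 for CA-RIT NFAT1 and 2 and 1 for NFAT5, with Egr1 at 564 ± 370 CPM with CA-RIT NFAT1, 894 ± 193 CPM with NFAT5 and 316 ± 78.7 CPM in eGFP controls.

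The other genes of these lists that the naming rule selected, by the lowest p of each list and comparison, stood as follows on the log2 scale. Between CA-RIT NFAT1 and NFAT5 the ER genes were Dnajc10 (0.32), Ubxn4 (0.27), Rnf103 (0.50), Srp68 (0.32) and Sec61g (-0.61). On the amino acid side of that comparison they were Cars (0.34), Yars (0.19), Ifrd1 (-0.50), Eif2ak2 (0.36), Pck2 (0.64), Prodh (3.82 ± 2.33) and Slc7a7 (2.72 ± 2.16), the last pair at under 3 CPM in each of the 8 libraries. Ier2 and Junb, immediate early genes, stood at -0.70 and -0.60. For CA-RIT NFAT1 against eGFP, Ero1l, the oxidase that recharges disulfide isomerases, stood at -0.75, Sec13 at -0.65, Kars at 0.60, Eef1e1 at -0.92, Gcn1l1, the GCN2 activator, at 1.28, Slc25a39 at -0.61, Ier3 at -1.28 and Dusp1 at -0.60. For NFAT5 against eGFP, Traf2 stood at -0.89, Derl2 at -0.96, Srp68 at -0.48, Kars at 0.55, Eif2b4 at -0.52 and Ier3 at -1.42. Without eGFP control 3 the value of Slc25a39 was 0.01 and that of Sec13 -0.09 for CA-RIT NFAT1, Derl2 was at -0.23 for NFAT5, and Bax and Srp14 were at -0.20 and -0.29 for CA-RIT NFAT1 and at -0.19 and -0.28 for NFAT5. Without that library Eef1e1 stood at -0.08, Ier3 at -0.37, Kars at 0.25, Ero1l at -0.38, Derl3 at -0.76 and Gcn1l1 at 0.77 for CA-RIT NFAT1, and Ier3 at -0.50, Kars at 0.20 and Eif2b4 at -0.22 for NFAT5 against eGFP.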

How the data were processed

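Per the submitters' processing notes, which name GRCm38.p6 and mm10 as builds, the authors estimated counts per transcript with Salmon 0.14.1. The deposited tables also hold TPM, used here for levels per length, and lengths and effective lengths, which are quantities other than expression, per the file headers. Of 140919 transcripts 139966 matched GENCODE M21, a release inferred because 99.9% of them had identical lengths, and 953 were left out, with at most 0.292% of a library's reads. Expected counts were summed per gene and rounded. CPM use the reads on matched genes, and log2 levels a pseudocount of 1 CPM.

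Per the labels' protocols, tumours were digested with collagenase and DNAse, and cells were enriched on Ficoll and sorted. Read trimming is not given in the sources used here. Genes were tested over 8 libraries with edgeR 4.0.16 in R 4.3.3 (quasi-likelihood, TMM, default low-count filter, Benjamini-Hochberg at 0.05 over all genes tested). The common biological coefficient of variation was 0.725. Each standard error was back-calculated from the F statistic and the fold change. The fit was first run on simulated counts with known changes, and its outcome there is not given here. DESeq2 1.42.0 and limma 3.58.1 voom were alternatives, beside other scalings and filters, average transcript length offsets and each library left out. Intervals are 95%, and floors of 3 reads cover counting error only. Bounds with 1 library left out were added after seeing the data.

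The members and lists were chosen with earlier results of these data known. Values in every library are given for the 4 members of each branch with the smallest p in each comparison and for Hspa5, Xbp1, Atf4, Ddit3, Asns and Slc7a5, and from each list of other genes the 2 with the smallest p per comparison are named. Ddit3 has 2 annotated genes under its symbol, which were added together. Promoter sequences are from RefSeq on GRCm38.p6. Protein sequences were not used here.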

Additional observations from a re-analysis of the deposited data

Results flagged for a closer look

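In the CA-RIT NFAT1 group of 4 libraries, library 10 stood far from the other 3 for 13 of 53 members examined, by the gap to the nearest library as a share of the whole range. Chance gives about 1 such gap in 20 groups. Over the 14473 genes tested library 10 stood apart in this way for 14.9%, 12.6% as the high one and 2.34% as the low one, against 22.6% and 1.89% of the members. In 12 of the 13 members library 10 was the high one. Among ER genes these were Hyou1 at 535 CPM (30.1 to 43.8 CPM in the other 3), Pdia4 at 1596 CPM (549.5 to 624 CPM) and Sel1l at 219 CPM (84.2 to 105 CPM). Among factors and effectors they were Cebpb at 408 CPM (38.7 to 57.0 CPM), Cebpg at 104 CPM (46.4 to 52.2 CPM), Nupr1 at 10.6 CPM (0.213 to 1.41 CPM) and Stc2 at 18 CPM (0.0346 to 1.14 CPM). Among synthesis and transport genes they were Asns at 390 CPM (76.5 to 101 CPM), Aldh18a1 at 594 CPM (143 to 170 CPM), Pycr1 at 40.0 CPM (2.31 to 7.27 CPM), Slc3a2 at 664 CPM (309 to 331 CPM) and Slc43a1 at 16.7 CPM (0.726 to 3.06 CPM). Selenos was the 1 low value, at 95.4 CPM (177 to 189 CPM). This is the library with 221 CPM of the CD8 T cell list and 5275 CPM of the mast cell list. It had 4601 CPM of the macrophage list and 4537 CPM of the dendritic cell list. The part of these cells in the values was not tested.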

How the results depend on the processing

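No paired analysis was possible because the groups share no replicate number. DESeq2 called 1, 60 and 102 genes for CA-RIT NFAT1 against NFAT5, CA-RIT NFAT1 against eGFP and NFAT5 against eGFP, and 1 amino acid branch member in each of the last 2. Over all 10 libraries the amino acid branch medians were 0.42, 0.81 and 0.013 in that order, and the chaperone branch medians 0.21 and 0.054 in the last 2. With limma voom the amino acid median for NFAT5 against eGFP was 0.024. Leaving out 1 library at a time gave 0 to 3410 called genes, 0 to 5 chaperone and 0 to 11 amino acid members for CA-RIT NFAT1 against eGFP, and 0 to 3294, 0 to 3 and 0 to 12 for NFAT5 against eGFP, with every count above 0 coming without eGFP control 6. The amino acid median then ran from -0.037 to 0.24 for CA-RIT NFAT1 and from -0.17 to 0.20 for NFAT5 against eGFP. Asns for NFAT5 against eGFP (-0.70 in the reported fit) ran from -1.30 to 0.39, its sign turning without eGFP control 3, and Ddit4 and Pycr1 turned without eGFP control 6 in the same comparison. The cause was not tested. For single members a turned sign was counted as reversed where the member passed the test in either fit. It was also counted so where the fold change was at least its SE in both fits. Of 1380 values in 9 other settings 1311 kept direction and call, 2 kept direction and passed the test, and 67 turned within their error. Of 1248 values with 1 library left out 1105 kept both, 3 reversed and 111 turned within their error. The rest of these kept direction but not call. The spliced share of Xbp1 and its 2 alternatives were not run, because no annotated transcript pair differs by the intron. With 2 usable eGFP controls, counts under about 1 CPM fix no fold change.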
